A study of Mus musculus with 20 samples.

Results

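The genes described here are the cytosolic ribosomal protein genes of mouse spinal cord cells, counted before and after spinal cord injury (SCI) with and without microglia. Members were all symbols of the count table that start with Rpl or Rps, without the Rps6k kinase genes, which gave 90 of 16003 genes. Of these, 53 were Rpl and 37 were Rps symbols, and 5 were symbols of processed pseudogenes (a suffix of ps). The members held 14642883 of 81305944 UMIs (unique molecular identifiers, 1 for each captured transcript molecule), or 18.0% of the RNA counted. The rule used names only, so the levels below did not choose the members.

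Single-cell RNA-seq (10x Chromium 3′ chemistry) was made from 6 libraries, 1 for each condition, and each library pooled cords of several mice. All mice were female C57BL/6J, 8 to 10 weeks of age, and ate chow with PLX5622 (1200 ppm), an inhibitor of the receptor Csf1r that depletes microglia, or vehicle chow, from 2 weeks before surgery until the endpoint. The 3 groups on each diet were sham (laminectomy at T9 without a contusion) and a T9 contusion studied at 7 or 28 days post-injury (dpi), and the sham library of each diet is the 1 reference for both times. The label of each sham library gives a time of 7 and 28 days, so sham is not matched to either time alone. A piece of cord of 1 cm was taken without perfusion, so blood cells were left in the tissue, and the suspension passed through enzymatic dissociation and removal of myelin and dead cells.

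With 1 library per condition no test between conditions was possible. Differences are given as log2 ratios with exact 95% intervals that cover counting error only, they have no replicate check, and condition and library cannot be told apart. The table held 1795, 7439 and 9846 cells from mice on vehicle chow (sham, then each time after injury) and 492, 504 and 940 cells from the matching PLX5622 mice, with 7185077, 35694246, 27768968, 2606149, 4353923 and 3697581 UMIs and medians of 3176, 3983, 2268.5, 3448.5, 5127 and 2641 UMIs per cell. Cells carried the cluster numbers of the authors, and each number was named from fixed marker genes. A name means only that the cluster was X-like by those markers. The microglia cluster (7018 cells) had 6 of 7 markers highest, monocyte-derived macrophages (MDMs, 6791 cells) 5 of 7, endothelial cells 6 of 6, astrocytes 7 of 7 and ependymal cells 6 of 6. 3 clusters stay unnamed because their leading genes go against their markers. Cluster 12 (168 cells) had all 7 pericyte markers highest but was led by the fibroblast genes Dpt and Lum. Cluster 5 (764 cells) had the T cell markers highest, but natural killer genes (Klra18, Gzma, Ncr1) led it along with Cd3e. Cluster 3 (1067 cells) had 5 of 7 monocyte markers highest, but macrophage genes (Retnla, Timd4, Cd163) were among its leading genes. Clustering read the same counts, so levels of the members between clusters are a description.

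A ribosome is built from a small (40S) subunit, whose proteins are encoded by Rps genes and which reads the mRNA, and a large (60S) subunit, whose proteins are encoded by Rpl genes and which joins amino acids. Rplp0, Rplp1 and Rplp2 form the stalk that recruits elongation factors. Vertebrate mRNAs of ribosomal proteins begin with an unbroken stretch of pyrimidines (C or T), the 5′ TOP motif, through which the growth kinase complex mTORC1 and the RNA-binding protein LARP1 set their translation and stability together. A few symbols in the list lie outside the standard ribosome: paralogs such as Rpl22l1, Rps27l and Rpl7l1, and Rps19bp1, which encodes a protein that binds Rps19.

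The pyrimidine stretch was looked for at the start sites of the RefSeq annotation of GRCm38.p6, as letters C or T only, on the transcript strand, at least 7 long, unbroken and covering the first base. Of the members, 65 of 90 had an entry, and 17 of 65 (26.2%) held such a run at the first listed start, against 1403 of 27025 genes in all (5.19%). With any listed start, the shares were 29.2% of members and 6.22% of all genes. Of the nuclear genes for mitochondrial ribosomal proteins, which serve another ribosome, 1 of 68 (1.47%) held it. Annotated starts can lie some bases from the start a cell uses, so a gene without a match is only one without these letters at this place.

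The following windows are only of members with such a run, so they do not show how common the run is. Their genes stood at the ends of the comparisons below or varied most between cell types, or, for Rps6, the S6 kinases act on the protein. Each holds 10 bases before and 20 from the annotated start, 5′ to 3′ on the transcript strand, and capitals mark the run of C and T that covers the start.
Rpl35 (large subunit, chr2:39005112-39005141, minus strand): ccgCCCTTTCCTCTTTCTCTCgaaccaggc
Rps10 (small subunit, chr17:27635225-27635254, minus strand): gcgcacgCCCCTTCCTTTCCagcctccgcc
Rpl28 (large subunit, chr7:4792955-4792984, plus strand): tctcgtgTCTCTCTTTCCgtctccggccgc
Rplp2 (stalk, chr7:141447641-141447670, plus strand): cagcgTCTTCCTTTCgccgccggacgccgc
Rpl38 (large subunit, chr11:114668570-114668599, plus strand): aagcctcgTTCTTTCCCCgttctcttcggt
Rps27 (small subunit, chr3:90213629-90213658, minus strand): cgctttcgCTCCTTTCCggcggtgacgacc
Rps6 (small subunit, chr4:86857348-86857377, minus strand): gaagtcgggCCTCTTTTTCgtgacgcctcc
Rps24 (small subunit, chr14:24490668-24490697, plus strand): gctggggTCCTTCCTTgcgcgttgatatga

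In the paralogs and in Rps19bp1 the same window held no run of that length over the start, so no letter is in capitals.
Rpl22l1 (paralog of Rpl22, chr3:28805498-28805527, plus strand): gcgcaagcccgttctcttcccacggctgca
Rps27l (paralog of Rps27, chr9:66946076-66946105, plus strand): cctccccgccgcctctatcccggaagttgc
Rpl7l1 (paralog of Rpl7, chr17:46782637-46782666, minus strand): gctgcgcaagcgcagtagctgaagcaccgg
Rps19bp1 (binds Rps19, chr15:80264287-80264316, minus strand): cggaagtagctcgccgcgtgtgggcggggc
Several core members were also without a run at the listed start, among them Rpl41, Rps19, Rpsa, Rps12, Rpl12, Rplp0 and Rpl22. All of these but Rpl22 also stood at the ends of the comparisons or varied most, so the windows printed do not set core members apart from the paralogs.

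Levels of single members spanned several orders of magnitude, but most lay close together. Summed over all cells, the median member had 155073.5 UMIs, 77 members had a UMI in more than 50% of cells, and 8 had fewer than 1000 UMIs in all. Levels are compared between genes as UMIs, since 3′ counting gives a transcript 1 UMI whatever its length. Rps29, a small-subunit protein with a zinc site, was highest with 568101 UMIs (6987 CPM, the UMIs of a gene for every 1000000 UMIs counted). The stalk protein gene Rplp1 followed with 435408 UMIs (5355 CPM), and then Rpl41 with 416418, Rps12 with 374748 and Rps24 with 341996 UMIs. These 5 held 14.6% of the UMIs of all members. Rpl genes held 56.0% of member UMIs.

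The fewest UMIs were those of Rpl3l (67), a paralog of Rpl3 known from heart and skeletal muscle, the pseudogene symbol Rps19-ps3 (104), Rpl26 (118), Rpl30 (157) and Rps15a-ps4 (181). Rpl26 and Rpl30 encode core large-subunit proteins of every ribosome. Their counts, and those of Rpl34 (9909 UMIs) and Rps27 (12229 UMIs), are uncertain, because near-identical copies elsewhere in the genome can take or void their reads, and so are those of the pseudogene symbols, of which Rps15a-ps6 had 40980 UMIs. Of the paralogs and related symbols, Rpl36al had 60255, Rpl22l1 29423, Rps27l 23726, Rpl7l1 4463, Rps19bp1 3415, Rps4l 2515 and Rpl39l 398 UMIs.

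**Figure D1:**
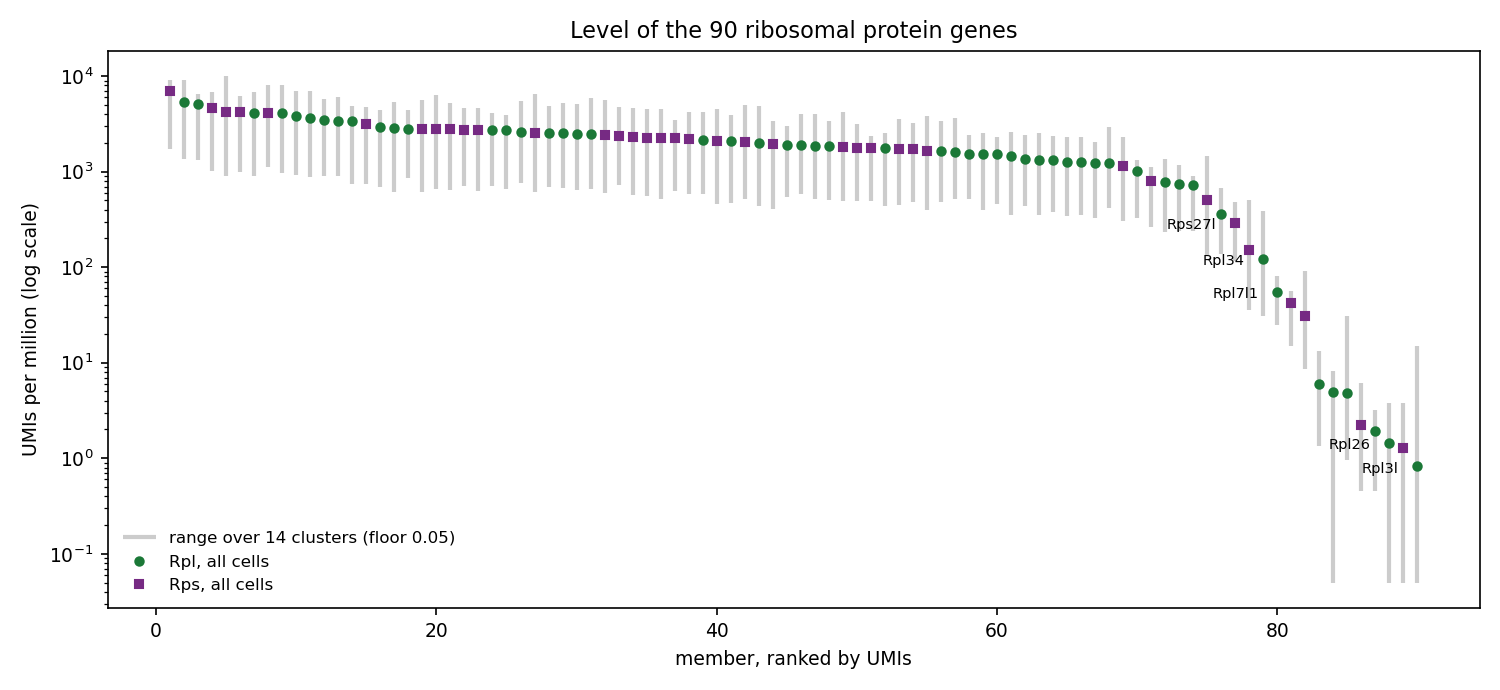
Level of each of the 90 ribosomal protein genes, ranked by UMIs on the horizontal axis, in CPM on a logarithmic vertical axis, with points for all cells together (circles Rpl, squares Rps) and grey bars for the range over the 14 clusters. Most members lie on a shallow slope below Rps29 at 6987 CPM, and the steep tail on the right holds the paralogs, the pseudogene symbols and the uncertain genes Rpl34 and Rpl26.

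The share of a cell's RNA that came from the members differed widely between cell types, with B cells and cluster 5 at one end and astrocytes and neutrophils at the other. In B cells, the median cell had 33.3% of its UMIs in member genes (median over 5 libraries of the median cell, range 24.6 to 35.5), and in cluster 5 (T and natural killer genes) 32.6% (6 libraries, 26.7 to 37.5). Cluster 3 followed at 22.2% (5 libraries, 13.5 to 33.9), microglia at 19.5% (6 libraries, 8.91 to 23.0) and MDMs at 18.6% (5 libraries, 15.7 to 18.6). These ranges overlap, so the order of B cells and cluster 5, and of cluster 3, microglia and MDMs, is not larger than the spread between libraries.

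The dividing cluster named intermediate progenitors had 16.4% (3 libraries, 11.0 to 16.9), endothelial cells 12.3% (6 libraries, 9.11 to 14.1) and erythroid cells 11.7% (4 libraries, 3.76 to 19.8). The markers of the dividing cluster, such as Mki67 and Top2a, are genes of cell division and give no lineage, and Mcpt8 led it. At 7 and 28 dpi under vehicle, 12 myeloid genes held 3.67% and 3.6% of the UMIs of that cluster, against 0.772% in vehicle sham. The 2 highest erythroid values, 19.8% and 17.1% at 7 and 28 dpi under vehicle, were from libraries whose erythroid cells also held 4.17% and 3.69% of UMIs in 12 myeloid genes, against 1.39% in vehicle sham and 0.182% at 7 dpi under PLX5622, and the part of that RNA was not tested. Leptomeningeal cells had 11.0% (2 libraries), cluster 12 8.66%, the oligodendrocyte lineage 7.42% and ependymal cells 7.22% (6 libraries, 6.02 to 7.92). Neutrophils, short-lived granulocytes of the blood, had 3.56% (4 libraries, 2.28 to 5.01) and astrocytes 2.78% (6 libraries, 1.47 to 5.76). Within libraries the ends of the order held still: cluster 5 was highest in 5 of 6 libraries, with B cells above it at 7 dpi under vehicle, and astrocytes were lowest in 5 of 6, with neutrophils below them at 7 dpi under vehicle. The part of free RNA in these shares was not tested.

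**Figure D2:**
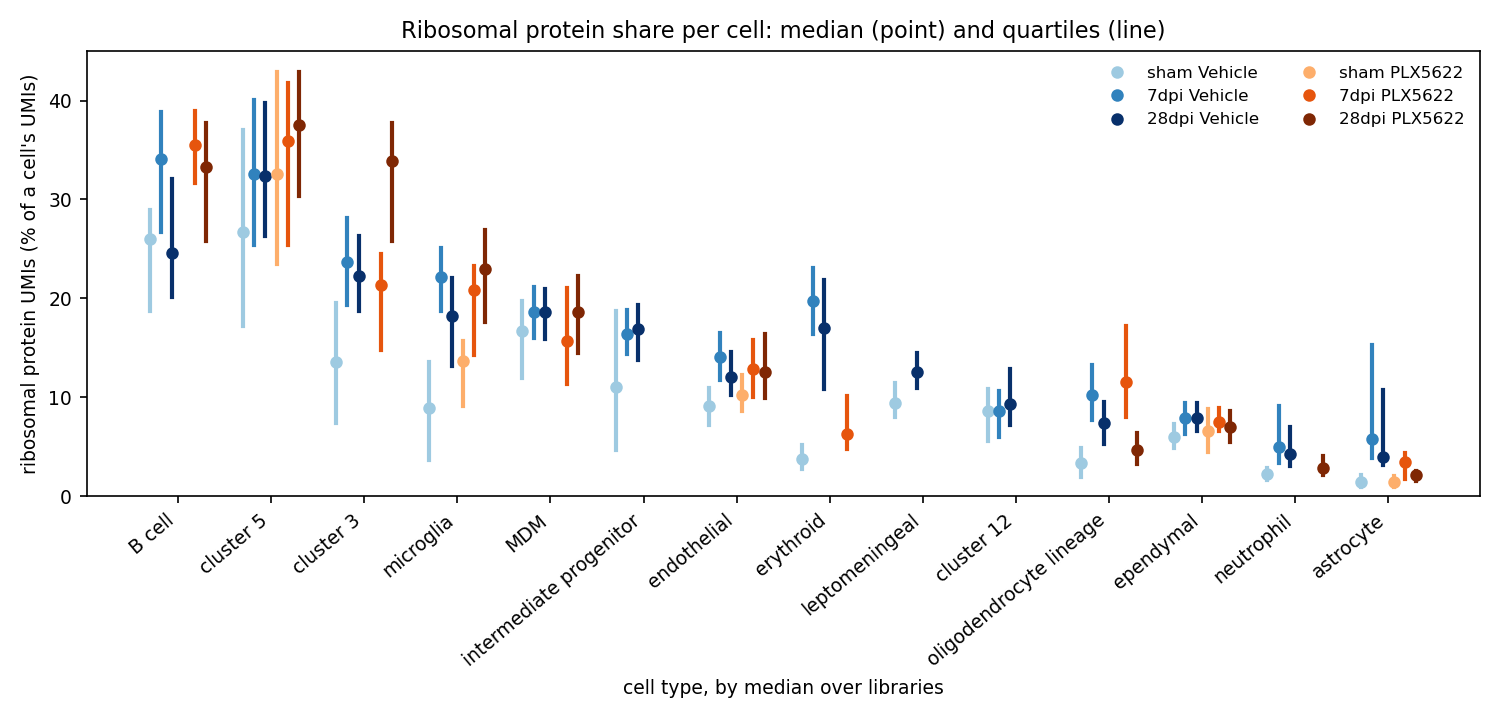
Share of each cell's UMIs in ribosomal protein genes (vertical axis, percent) for the 14 clusters with at least 20 cells in a library, with a point for the median cell and a line for the quartiles in each of the 6 libraries. Cluster 5 and B cells stand at the top with medians of 32.6% and 33.3%, and neutrophils and astrocytes at the bottom with 3.56% and 2.78%.

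Among genes with at least 10 UMIs in each of the 14 clusters, members varied more between cell types than that set as a whole. The minimum leaves out genes restricted to few cell types, so the whole table is not described. Among the 81 members with at least 10 UMIs in every cluster, the SD of log2 CPM over clusters had a median of 0.80, against 0.63 over 3685 genes with that minimum. With all libraries summed, 63 of these 81 members were highest in cluster 5 and 12 in B cells, an order that the spread between libraries does not settle, and 74 were lowest in astrocytes and 7 in neutrophils. The most variable were Rps27 (SD 1.02), Rpl12 (0.98), Rps24 (0.98), Rps19 (0.96) and Rpsa (0.95). Rps24 stood at 10025.6 CPM in cluster 5 and 904.9 CPM in astrocytes. Rpsa, which also serves as a laminin receptor, stood at 5578.0 CPM in cluster 5 and 600.9 CPM in astrocytes. Among the least variable were Rpl7l1 (0.44), Rps19bp1 (0.48), Rpl31 (0.60) and Rps27l (0.61), of which Rpl31 alone is neither a paralog nor Rps19bp1. Rpl7l1 ranged only from 25.1 CPM in neutrophils to 81.0 CPM in leptomeningeal cells.

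As shares of the members' own UMIs, which takes out the common level, the median SD over clusters was 0.19 on the log2 scale. The highest were Rps19bp1 (0.85), Rpl7l1 (0.82), Rps27l (0.79), Rpl22l1 (0.57) and Rps27 (0.52). Core proteins kept the most even shares: Rpl22 (0.081), Rps3 (0.096), Rps3a1 (0.097), Rpl23 (0.10) and Rpl6 (0.10).

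The paralogs stood in different proportions to their partners between cell types. Rpl22l1, which can replace Rpl22 in the ribosome, had 24.5 UMIs per 100 of Rpl22 over all cells. The ratio was 72.0 in leptomeningeal cells and 63.3 in ependymal cells (46.5 to 70.9 over 6 libraries), and 21.7 in microglia (17.8 to 25.7), so ependymal cells and microglia did not overlap over the libraries. In astrocytes Rpl22l1 stood at 73.7 and 70.4 per 100 in the sham libraries on vehicle and PLX5622 and at 25.9 and 32.8 at 7 and 28 dpi under vehicle. Those 2 injured libraries also had the highest level of Rpl22 in astrocytes, at 1050 and 773 CPM against 151 and 138 CPM in sham, while Rpl22l1 stood at 272 and 254 CPM against 112 and 97.3 CPM.

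Rps4l, an autosomal copy of the X-linked Rps4x, had 1.13 UMIs per 100 of Rps4x over all cells. It reached 9.28 in ependymal cells (at least 6.69 in each library) and 4.10 in endothelial cells (3.21 to 6.57), and stood at 0.999 in microglia and 0.184 in cluster 5. In astrocytes it was 12.2 and 25.6 in the vehicle and PLX5622 shams and 2.32 and 1.19 at 7 and 28 dpi under vehicle, the last near the value of all cells. Rpl36al, a copy of Rpl36a, had 58.2 per 100 over all cells, 83.4 in cluster 3 and in neutrophils, 59.3 in MDMs, 53.0 in microglia and 39.1 in ependymal cells. Rpl7l1, which acts in assembly of the large subunit, had 3.59 per 100 of Rpl7 over all cells and 2.13 in cluster 5. In astrocytes it had 26.3 and 37.2 per 100 in the vehicle and PLX5622 shams and 3.74 and 6.02 at 7 and 28 dpi under vehicle, from 8 to 44 UMIs of Rpl7l1. Rpl39l, known from testis, was nearly absent at 0.12 per 100 of Rpl39. Of the 67 UMIs of Rpl3l, 22 were in MDMs and 19 in neutrophils, where they made up 3.96 per 100 of Rpl3. Since Rps27 is uncertain, no ratio is given for Rps27l, and Rpl10l was not analysed here.

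Injury was compared with sham to see how the RNA of each cell type differed after the lesion. Over whole libraries, the members held 12.4% of UMIs in sham, 19.2% at 7 dpi and 18.7% at 28 dpi under vehicle, and 10.1%, 16.2% and 20.2% under PLX5622. Within cell types of vehicle mice, the summed share was higher at 7 dpi than in sham in 12 of 13 types and at 28 dpi in 13 of 14, with cluster 5 the exception at both times. In cells of cluster 5 with under 3 UMIs of 12 myeloid genes, the summed share was higher after injury. It was 33.6% in sham (13 cells), 39.2% at 7 dpi (26 cells) and 37.7% at 28 dpi (97 cells). Median cells were higher in 12 of 13 and 13 of 14 types, with cluster 12 and B cells the exceptions. Under PLX5622, all 5 types with at least 20 cells in sham (microglia, astrocytes, endothelial cells, ependymal cells and cluster 5) were higher at 7 and at 28 dpi. For summed shares, some of these ratios had intervals that included 0. Under PLX5622 they were ependymal cells at 28 dpi (log2 ratio 0.003, −0.020 to 0.027) and cluster 5 at 7 dpi (0.014, −0.0078 to 0.035). Under vehicle it was cluster 12 at 7 dpi (0.031, −0.016 to 0.077). The direction was thus shared by most types in both diets, and its size was not: at 7 dpi under vehicle, the log2 ratio of summed shares was 2.84 in astrocytes, 0.85 in microglia, 0.59 in endothelial cells, 0.09 in MDMs and −0.07 in cluster 5. All these ratios rest on the same sham library.

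Immediate early genes, which are induced within minutes when tissue is dissociated, were lower in the injured libraries. They held 0.959% of UMIs in the vehicle sham library and 0.267% and 0.288% at 7 and 28 dpi, and 0.440%, 0.329% and 0.197% under PLX5622. Their part in the differences of the members was not tested.

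In microglia, the resident macrophages of the cord, the members were higher after injury in every library than in sham of the same diet. Under vehicle, the summed share was 12.4% in sham (674 cells), 22.3% at 7 dpi (2154 cells) and 19.6% at 28 dpi (3974 cells). In the few microglia left under PLX5622 it was 13.4% in sham (29 cells), 21.6% at 7 dpi (61 cells) and 23.6% at 28 dpi (126 cells). The 4 injured libraries lay between 19.6% and 23.6%, above both sham libraries. Against vehicle sham, the log2 ratio was 0.85 (95% interval 0.846 to 0.858) at 7 dpi and 0.66 (0.659 to 0.671) at 28 dpi. Per cell, the mean number of member UMIs was 384.9 in sham, 700.3 at 7 dpi and 391.5 at 28 dpi, and that of all other UMIs 2725, 2434 and 1604. So under vehicle the member count itself was higher at 7 dpi, while at 28 dpi it was close to sham and the count of other genes was lower. Under PLX5622 the member counts were 652.7, 1358 and 805.3 and the other counts 4231, 4927 and 2606. Raw counts also depend on the depth of each library. The median microglia had 3178, 2902.5 and 1686 UMIs under vehicle and 5000, 6448 and 2896.5 under PLX5622.

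Of the 82 members with at least 100 UMIs in the 2 libraries, 63 were more than 1.5 fold higher at 7 dpi and 1 was lower, with a median log2 ratio of 0.82. Of all 6623 genes with that minimum, 8.56% were higher and 47.3% lower, and their median was −0.54. At 28 dpi, 42 of 82 members were higher and 1 lower, with a median of 0.60, against 7.43% higher and 38.3% lower of all genes and a median of −0.44. These values are shares of all UMIs, so a higher share of some genes means a lower share of others. With scaling by edgeR's TMM factors, which centre on the bulk of genes, every ratio in microglia is higher by 0.63 at 7 dpi and 0.50 at 28 dpi, the summed ratios become 1.49 and 1.16, and 80 and 77 members are higher and 0 lower. Here and below, the share of all genes past 1.5 fold with TMM scaling is not given, so such counts only describe the members. Both subunits took part in the unscaled comparison: at 7 dpi the median was 0.84 for Rpl and 0.79 for Rps members, and at 28 dpi 0.63 and 0.58.

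Among large-subunit genes, Rpl41, the shortest ribosomal protein, stood at 1930 CPM in sham, 6080 at 7 dpi and 4800 at 28 dpi under vehicle, and 2780, 6150 and 6640 under PLX5622. The 4 injured libraries were all above both sham libraries, and the log2 ratio at 7 dpi was 1.66 (1.61 to 1.70), the highest of the members. The share of all genes that separate the libraries in this way is not given. Here and in the genes below, such separation only describes the genes named. Rpl35, near the exit of the peptide tunnel, stood at 1150, 3250 and 3030 CPM under vehicle and 1780, 3340 and 3950 under PLX5622, also without overlap. Its log2 ratio was 1.50 (1.44 to 1.56) at 7 dpi, and at 28 dpi it was 1.40 (1.34 to 1.46). Rpl36 came next at 7 dpi, with 2280 CPM against 857. Rpl38, known for its part in translating Hox mRNAs, stood at 1360, 3000 and 2360 CPM under vehicle and 1380, 3030 and 3500 under PLX5622, again with every injured library above both shams.

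Rpl5 and Rpl11, which form the 5S particle that can bind the p53 inhibitor Mdm2, differed from each other. Rpl11 stood at 1240, 2310 and 2090 CPM under vehicle and 1380, 2190 and 2590 under PLX5622. Rpl5 stood at 1340, 1590 and 1410 CPM under vehicle and 1080, 1460 and 1460 under PLX5622, a smaller difference, although here too each injured library was above its own sham. Rpl3, at the peptidyl transferase centre, stood at 1400, 1600 and 1460 CPM under vehicle, close together, and at 1150, 1690 and 1330 under PLX5622, where it was further from sham at 7 dpi.

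In the stalk, Rplp2 stood at 1140, 2620 and 2490 CPM under vehicle and 1790, 3260 and 2970 under PLX5622. Rplp1 stood at 3480, 6020 and 6820 CPM under vehicle and 5070, 6770 and 8030 under PLX5622. Rplp0 stood at 1440, 2440 and 2390 CPM under vehicle and 1830, 2530 and 2150 under PLX5622. All 3 stalk genes were higher in each of the 4 injured libraries than in both shams.

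Among small-subunit genes, Rps29 stood at 4730, 10200 and 7960 CPM under vehicle and 6380, 10600 and 13000 under PLX5622. Rpsa stood at 1110, 2560 and 2890 CPM under vehicle and 1530, 2620 and 2320 under PLX5622, and its log2 ratio at 28 dpi was 1.38 (1.32 to 1.44). Rps19, whose loss causes an anemia, stood at 969, 2190 and 2240 CPM under vehicle and 1450, 2420 and 2600 under PLX5622. In these 3 genes the injured libraries did not overlap with sham, with the limit given for Rpl41. Rps6, the target of the S6 kinases, differed less, at 1100, 1330 and 1210 CPM under vehicle and 988, 1240 and 1380 under PLX5622. Here too each injured library was above both shams. Rps27a, made as a fusion with ubiquitin, stood at 2470, 4260 and 3430 CPM under vehicle and 2440, 3760 and 4410 under PLX5622. Rps27 had the highest log2 ratio at 28 dpi, 1.73 (1.47 to 2.00), at a low and uncertain level of 201 CPM against 60.6.

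The single member past 1.5 fold in the other direction was the assembly factor paralog Rpl7l1, at both times. It stood at 85.9, 53.8 and 53.0 CPM under vehicle, with log2 ratios of −0.68 (−0.94 to −0.41) and −0.70 (−0.95 to −0.44). Under PLX5622 it stood at 70.6, 62.6 and 72.1 CPM, so the diets did not share this direction at 28 dpi, and with TMM scaling its calls were lost. Rps4l, with 31.1 CPM at 7 dpi against 33.4 (log2 ratio −0.10, −0.50 to 0.31), and Rpl34, with 96.0 CPM against 97.3 (−0.02, −0.25 to 0.21), had intervals that include 0. At 28 dpi so did Rps15a-ps6 (0.00) and Rps4l (0.03).

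Ribosomal protein genes that the name rule leaves out were also higher after injury. Fau, which encodes Rps30 fused to a ubiquitin-like protein, stood at 3840, 7830 and 6740 CPM in vehicle microglia. Gnb2l1 (the older symbol of Rack1, a scaffold on the small subunit) stood at 1170, 1880 and 1670 CPM. Both were past 1.5 fold at 7 dpi, and of these Gnb2l1 was not at 28 dpi.

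Other lists of the translation machinery, as shares of all UMIs, are set beside all genes. Of all genes, 8.56% were higher and 47.3% lower at 7 dpi, and 7.43% higher and 38.3% lower at 28 dpi. Of 35 initiation and elongation factors, 2 were higher and 3 lower at 7 dpi, with a median log2 ratio of 0.10 (highest Eif3k at 0.93, lowest Eif2s1 at −0.83), and 2 were higher and 1 lower at 28 dpi. Of 27 genes of ribosome biogenesis, 4 were higher and 8 lower at 7 dpi, with a median of −0.23, from Nhp2 of the H/ACA particle at 0.97 to Taf1d of the RNA polymerase I machinery at −1.38. Of 28 such genes, 3 were higher and 6 lower at 28 dpi. Of 10 genes of the mTORC1 pathway, 5 were lower and 0 higher at 7 dpi, with a median of −0.60, from the translation repressor Eif4ebp1 at 0.51 to the mTORC1 inhibitor Tsc1 at −1.57, and 4 of 12 were lower at 28 dpi. Of 73 mitochondrial ribosomal protein genes, 12 were higher and 7 lower at 7 dpi, with a median of 0.03 (Mrpl54 1.46, Mrpl50 −1.41), and of 75 at 28 dpi 7 were higher and 7 lower. Of 5 S6 kinase genes, 2 were lower and 0 higher at 7 dpi, with a median of −0.58. Beside the all-gene median of −0.54, the medians of the mTORC1 and S6 kinase lists lay near the background, while those of the translation factors and the mitochondrial ribosomal proteins lay above it. The TMM shift of 0.63 applies to these lists as well, and it puts the medians of all 5 at 7 dpi above 0 and those of the translation factors and the mitochondrial ribosomal proteins past 1.5 fold.

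**Figure D3:**
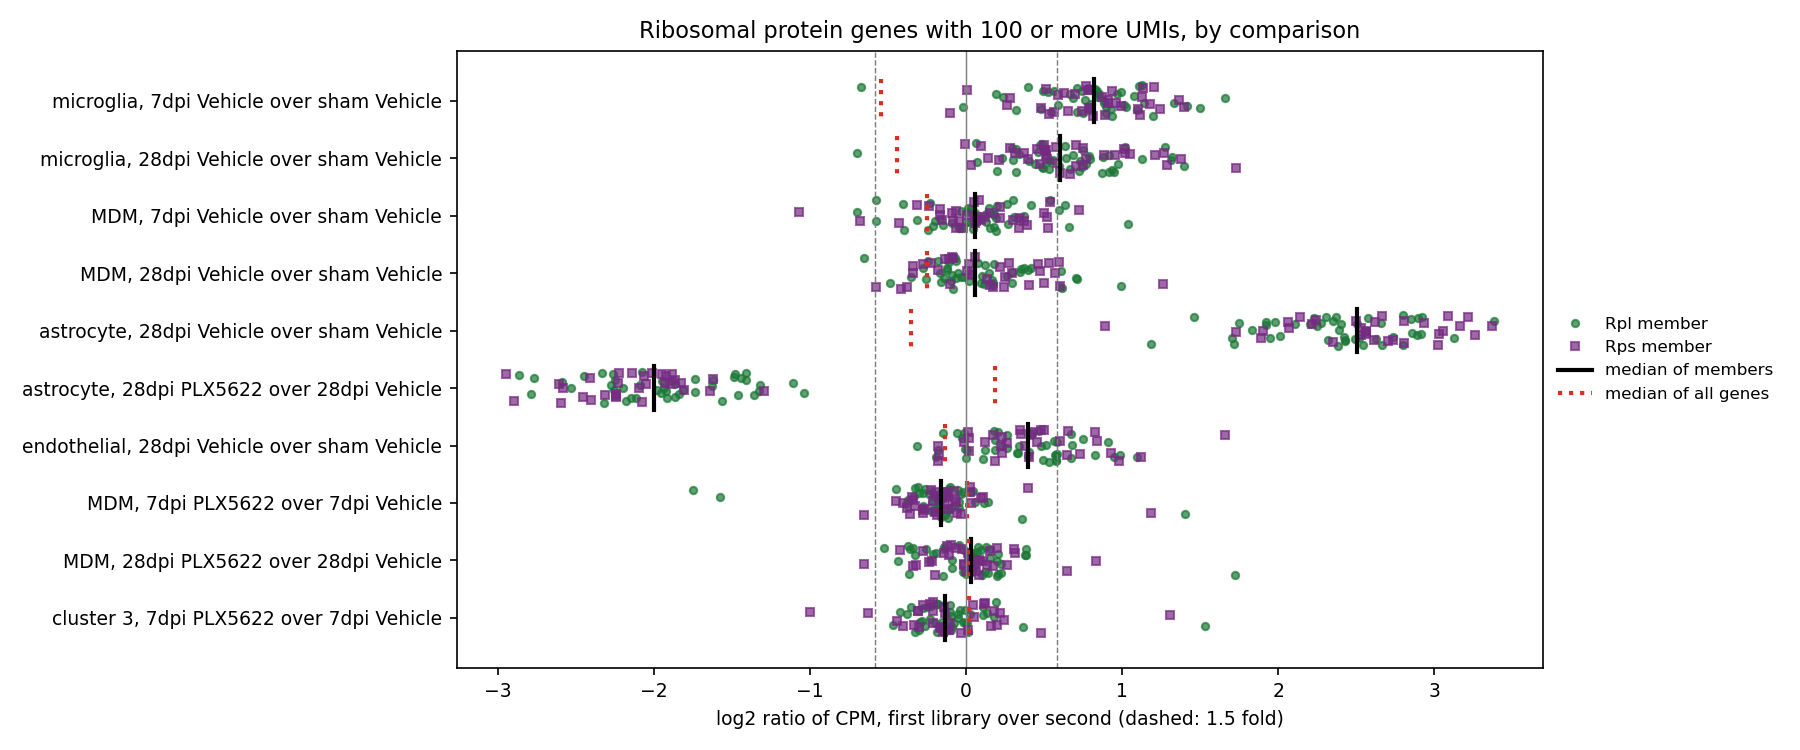
Log2 ratio of CPM (horizontal axis) of each ribosomal protein gene with at least 100 UMIs in the 2 libraries, for the 10 comparisons (vertical axis), with circles for Rpl and squares for Rps members, black bars for the median of the members, red dotted bars for the median of all genes and dashed lines at 1.5 fold. Members of microglia lie to the right at medians of 0.82 and 0.60, those of MDMs near 0, and those of astrocytes far right in injury (2.51) and far left under PLX5622 (−2.00).

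As a ratio, the difference in microglia was wider in cells under 2000 UMIs than in cells above. In sham vehicle microglia, the median share was 2.19% in cells under 1000 UMIs (126 cells), 2.80% from 1000 to 2000 (94 cells), 10.3% from 2000 to 5000 (357 cells) and 16.4% at 5000 or more (97 cells). At 7 dpi the same bins had 8.77%, 18.7%, 23.4% and 21.6%, and at 28 dpi 11.7%, 17.1%, 21.6% and 21.4%. Each bin was higher in both injured libraries than in sham. Over cells, Spearman's correlation between UMIs and the member share was 0.70 in sham (674 cells) against 0.30 at 7 dpi (2154 cells) and 0.65 at 28 dpi (3974 cells), a description of cells that share a library. Immediate early genes held 1.96% of microglia UMIs in vehicle sham, 0.431% at 7 dpi and 0.404% at 28 dpi, and 1.17%, 0.585% and 0.315% under PLX5622, and of 15 such genes 13 were lower at 7 dpi (median −1.98, Klf2 lowest at −2.98) and 14 at 28 dpi (median −2.37). In all 4 injured libraries they were below both shams, opposite to the members, and their part in the result was not tested.

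**Figure D4:**
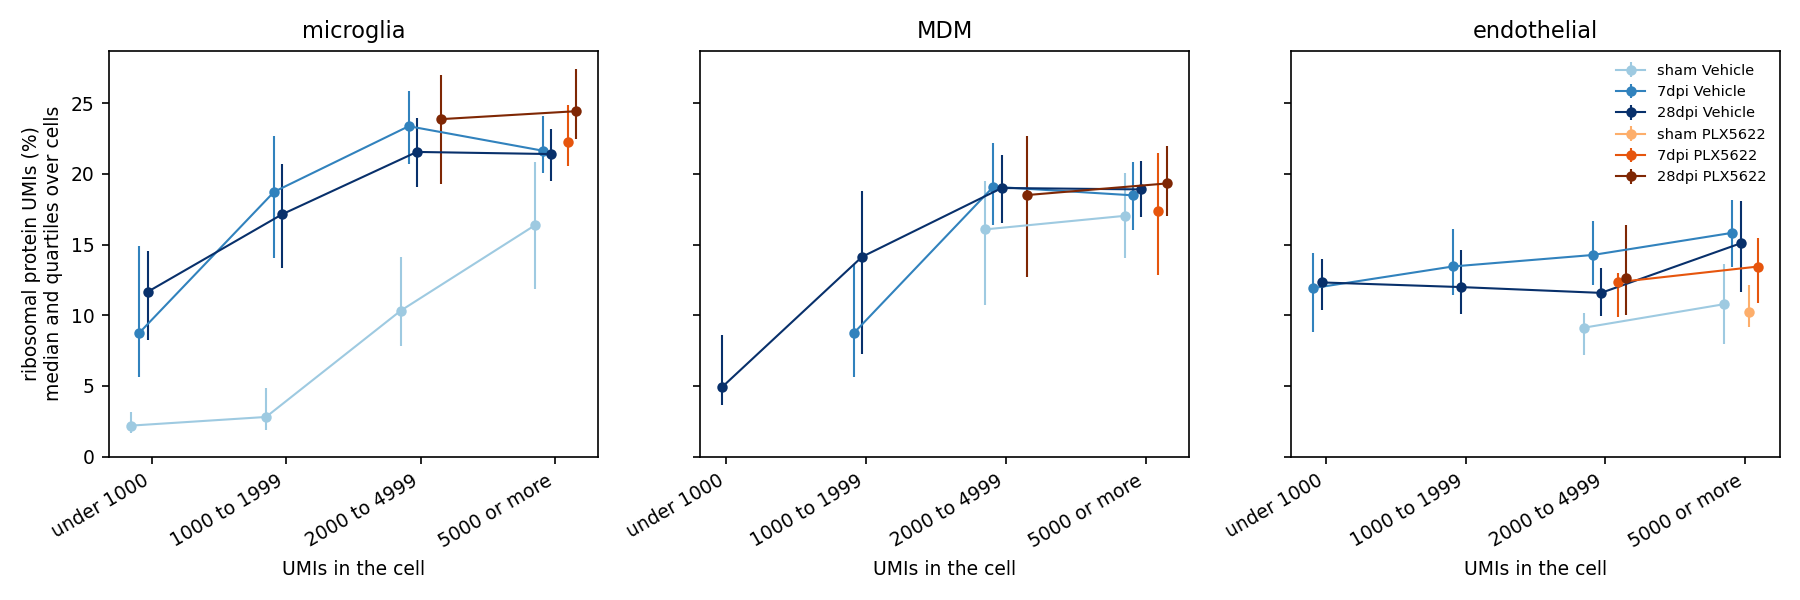
Median share of UMIs in ribosomal protein genes (vertical axis, percent) of microglia, MDMs and endothelial cells in bins of UMIs per cell (horizontal axis), with 1 line per library and bars for the quartiles over cells, for bins with at least 20 cells. Sham vehicle microglia lie lowest in every bin, from 2.19% under 1000 UMIs to 16.4% at 5000 or more, while MDMs of the sham, 7 dpi and 28 dpi vehicle libraries lie between 16.1% and 19.1% from 2000 UMIs on.

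In MDMs, the macrophages that enter the lesion from blood, the members hardly differed between conditions. The summed share was 17.4% in vehicle sham (185 cells), 18.5% at 7 dpi (3023 cells), 18.7% at 28 dpi (3313 cells), and 16.6% and 18.9% at 7 and 28 dpi under PLX5622 (100 and 161 cells). The log2 ratio to sham was 0.09 at 7 dpi and 0.10 at 28 dpi. At 7 dpi, 5 of 84 members were higher than 1.5 fold and 3 lower, with a median of 0.06, where 9.98% of all genes were higher and 28.8% lower, with a median of −0.25. At 28 dpi, 9 of 83 were higher and 1 lower, with a median of 0.06, where 5% of all genes were higher and 22.1% lower, with a median of −0.25. So the share of members past 1.5 fold upward was near the background at 7 dpi. With TMM scaling, which adds 0.36 and 0.32 to each ratio, the summed ratios were 0.45 and 0.42, with 22 members higher and 1 lower at 7 dpi and 24 higher and 0 lower at 28 dpi.

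At 7 dpi the higher members included Rpl41 (5990 CPM against 3800, log2 ratio 0.66), Rps19bp1 (46.5 against 28.2, 0.72) and Rpl28 (0.63), and the lower ones were Rps4l (−1.07), Rpl34 (−0.70) and Rps15a-ps6 (−0.68). At 28 dpi, the higher ones included Rps27 (182 CPM against 76.2, 1.26), Rpl28 (0.71) and Rpl36 (0.70), and the lower one was Rpl7l1 (−0.65). The stalk gene Rplp1 stood at 4390, 5270 and 6680 CPM in sham, 7 and 28 dpi vehicle MDMs, and Rpl3 at 1900, 1270 and 1360 CPM. Rpl3 was thus lower in injury than in sham in MDMs (log2 ratio −0.48 at 28 dpi, −0.54 to −0.43) although it did not pass 1.5 fold at 28 dpi.

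Of 35 translation factors in MDMs, 5 were lower and 0 higher at 7 dpi, among them the poly(A) binding protein Pabpc1 at −1.12. Of 29 biogenesis genes, 2 were higher and 10 lower at 7 dpi and 0 were higher and 5 lower at 28 dpi, shares near those of all genes (28.8% and 22.1% lower). Of 13 mTORC1 genes, 1 was higher and 6 lower at 7 dpi, with Myc, which drives ribosome production in growing cells, lowest of that list at −1.84. Mitochondrial ribosomal protein genes were mixed, with 12 of 77 higher and 6 lower at 7 dpi. Immediate early genes were lower in 14 of 15 at 7 dpi here as well, while the summed share of the members differed little.

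In astrocytes, the glial cells that border the lesion, the differences were the largest of the 10 comparisons. The summed share was 1.86% in vehicle sham (310 cells), 13.3% at 7 dpi (69 cells) and 10.7% at 28 dpi (245 cells), and 1.81%, 4.88% and 2.64% under PLX5622 (204, 39 and 107 cells). The injured libraries of vehicle mice were far above all others, and those of PLX5622 mice lay between them and sham. At 28 dpi under vehicle the log2 ratio to sham was 2.52 (2.50 to 2.55), a fold of 5.75. The median cell differed less, with 1.49% in sham and 3.98% at 28 dpi, since the summed share weights cells by their UMIs. Against the same library, astrocytes of 28 dpi PLX5622 mice were at −2.01 (−2.06 to −1.97). These 2 comparisons share the 28 dpi vehicle library.

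At 28 dpi, 77 members had at least 100 UMIs in the 2 libraries, a minimum on their sum that a member can reach through the injured library alone, so their count and median are no support. All 77 were more than 1.5 fold higher than in sham, with a median log2 ratio of 2.51, where 18.9% of all 1891 genes were higher and 37.3% lower. The same limit holds for PLX5622 at 28 dpi, where all 76 counted members were lower, with a median of −2.00, beside 33.9% of 771 genes higher and 30.9% lower. Of the members under the minimum in injury, Rpl7l1 (50.7 CPM against 56.4), Rps19bp1 (45.9 against 46.2) and Rps4l (19.3 against 28.2, from 8 and 22 UMIs) were not higher at 28 dpi than in sham. Rpl35 had the highest ratio in injury, at 1700 CPM against 163 in sham (3.38, 3.11 to 3.67), followed by Rps19 (1220 against 118, 3.37) and Rps10 (1480 against 154, 3.26). Over the 6 libraries, Rpl35 stood at 163, 2120 and 1700 CPM under vehicle and 191, 657 and 449 under PLX5622. Rps29 stood at 495, 5780 and 4040 CPM under vehicle and 567, 1950 and 1100 under PLX5622, and the stalk gene Rplp1 at 413, 3540 and 3610 and at 451, 1550 and 752 CPM. In each of these 3 genes both injured vehicle libraries were above the injured PLX5622 libraries, and those above both shams.

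Above that minimum, the ratios nearest 0 included those of 2 paralogs. Rps27l had the lowest there (169 CPM against 91.1, 0.89, 0.40 to 1.39), then Rpl22l1 (1.18) and Rpl3 (1.46). Below it, Rpl7l1 was level over the libraries at 56.4, 43.5 and 50.7 CPM under vehicle and 54.6, 38.1 and 59.4 under PLX5622. Rps19bp1 stood at 46.2, 43.5 and 45.9 CPM under vehicle and 47.8, 57.1 and 13.2 under PLX5622. Under PLX5622 at 28 dpi, the lowest ratios were those of Rps20 (198 CPM against 1530, −2.95), Rps12 (363 against 2700, −2.89) and Rplp0 (165 against 1200, −2.86), and the ratios nearest 0 included those of Rpl38 (732 against 1500, −1.04) and Rpl31 (−1.11).

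Fau and Gnb2l1 stood with the members in astrocytes, both past 1.5 fold higher at 28 dpi and both lower under PLX5622. Of 24 translation factors, 13 were higher and 1 lower at 28 dpi, with a median of 0.72, and 10 of 17 were lower under PLX5622, with a median of −0.94. Eef1a1, the elongation factor that brings tRNAs to the ribosome and a known 5′ TOP mRNA, stood at 2.35 in injury and was the lowest of its list under PLX5622. Of 12 mitochondrial ribosomal protein genes, 2 were higher and 2 lower at 28 dpi (median −0.19).

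RNA of myeloid genes moved with the members in these astrocytes. A fixed list of 12 myeloid genes (among them C1qa and C1qb of the complement system) held 0.181% of astrocyte UMIs in vehicle sham, 2.35% at 7 dpi and 2.22% at 28 dpi, and 0.0104%, 0.235% and 0.099% under PLX5622. All 12 were higher at 28 dpi (median 3.55) and all 12 lower under PLX5622 (median −4.73), and Lyz2, Cd68 and Aif1 were at 0 UMIs in sham PLX5622 astrocytes. Of 8 immediate early genes counted in astrocytes, 3 were higher and 1 lower at 28 dpi, so here they did not move opposite to the members. Astrocytes with under 3 UMIs of these genes had summed shares of 1.59% in vehicle sham (298 cells), 5.35% at 7 dpi (24 cells) and 3.60% at 28 dpi (124 cells), and those with 3 or more 7.01% (12 cells), 15.0% (45 cells) and 14.1% (121 cells). In the cells with few myeloid UMIs, the log2 ratio to sham at 28 dpi was thus 1.18 in place of 2.52, and that of PLX5622 to vehicle at 28 dpi −0.57 in place of −2.01. In that last comparison 21 members were past 1.5 fold in place of 76. The smaller set can leave fewer members above the minimum count, so the 2 counts are not compared. In astrocytes with few myeloid UMIs, shares were 1.79% (199 cells), 3.51% (35 cells) and 2.42% (103 cells) under PLX5622, so each injured library was above its own sham.

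**Figure D5:**
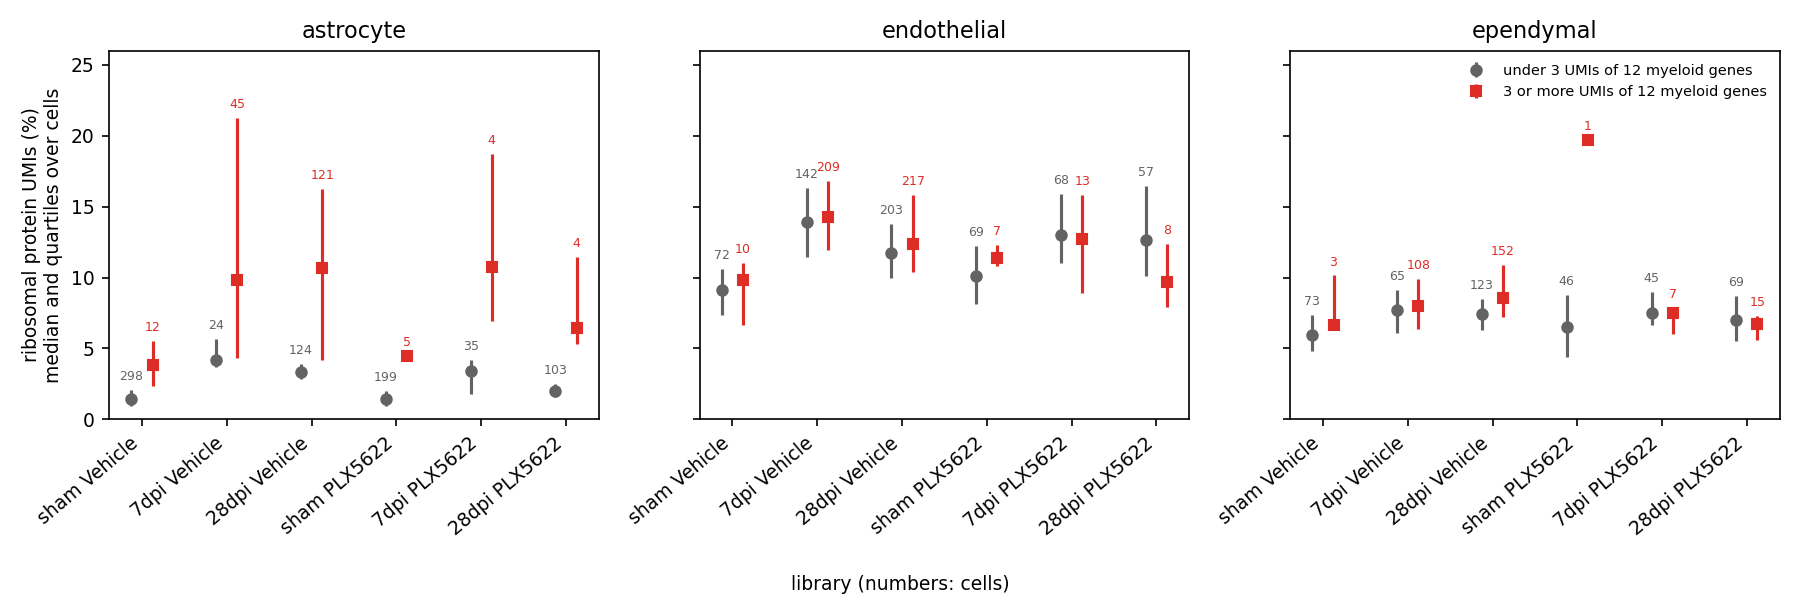
Share of UMIs in ribosomal protein genes (vertical axis, percent, median and quartiles over cells) of astrocytes, endothelial and ependymal cells in the 6 libraries, for cells with under 3 UMIs (grey circles) and with 3 or more UMIs (red squares) of 12 myeloid genes, with cell numbers above. In astrocytes of the 28 dpi vehicle library, the median was 3.36% in 124 cells with few and 10.7% in 121 cells with more myeloid UMIs, while in endothelial and ependymal cells of the vehicle libraries the 2 sets lie close together.

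In endothelial cells, the summed share was 10.2% in vehicle sham, 15.3% at 7 dpi and 13.3% at 28 dpi, and 10.7%, 13.5% and 13.5% under PLX5622, so the 4 injured libraries lay above both shams. The log2 ratio at 28 dpi under vehicle was 0.39 (0.37 to 0.41). Of 79 members, 19 were higher and 0 lower than 1.5 fold, with a median of 0.39, where 9.26% of all genes were higher and 14.6% lower, with a median of −0.14. With TMM scaling 39 were higher and 0 lower, and against the PLX5622 sham library 10 passed 1.5 fold, both without the share of all genes beside them. The highest were Rps27 (143 CPM against 45.3, 1.66, 0.86 to 2.57), Rpsa (1700 against 783, 1.12) and Rplp2 (1630 against 763, 1.10). The lowest were Rpl34 (−0.31, −0.90 to 0.30), Rpl31 (−0.19) and Rps27l (−0.18). The 12 myeloid genes were all higher here too, at 1.22% of UMIs against 0.159%, and in endothelial cells with under 3 of their UMIs the member share was 9.67% in sham and 11.5% at 28 dpi. The other lists were near even, with 1 of 29 translation factors higher and 1 lower, and 3 of 17 mitochondrial ribosomal protein genes higher.

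Ependymal cells, which line the central canal, stood at 5.94%, 9.57% and 9.48% under vehicle and 7.49%, 8.05% and 7.50% under PLX5622. The 12 myeloid genes held 0.0137%, 0.759% and 0.818% of ependymal UMIs under vehicle and 0.0394%, 0.215% and 0.105% under PLX5622. In ependymal cells with under 3 of their UMIs, summed shares were 5.915%, 7.715% and 7.554% under vehicle (73, 65 and 123 cells). Under PLX5622 they were 7.361%, 7.597% and 7.564% (46, 45 and 69 cells), so after injury the diets lay close together in those cells. Beyond this split, the part of myeloid RNA was not tested. In cluster 5, summed shares were 31.3%, 29.8% and 30.3% under vehicle and 35.0%, 35.4% and 38.02% under PLX5622, and each PLX5622 library was above the 3 on vehicle. The median cell had 26.7%, 32.6% and 32.4% under vehicle, so after injury it was higher than in sham while the summed share was lower, and 32.6%, 35.9% and 37.5% under PLX5622. The myeloid genes held 0.46%, 2.17% and 1.91% of its UMIs under vehicle and 0.194%, 0.346% and 0.303% under PLX5622. In its cells with under 3 of those UMIs, summed shares were 33.6%, 39.2% and 37.7% under vehicle (13, 26 and 97 cells). Under PLX5622 they were 34.3%, 38.95% and 40.35% (3, 5 and 60 cells), so in those cells the diets overlapped. Over all cells of cluster 5, Rps24 stood at 10800, 8920 and 9080 CPM under vehicle and 11200, 10500 and 11600 under PLX5622. In neutrophils, the blood granulocytes at the low end, the summed share was 2.92% in vehicle sham, 9.19% at 7 dpi and 8.66% at 28 dpi, and 3.05% at 28 dpi under PLX5622. Their median cells lay closer together, at 2.28%, 5.01%, 4.25% and 2.87% in the same order, so the summed shares, which weight cells by their UMIs, lay above the median cells in all 4 libraries. Myeloid genes held 0.755%, 1.75%, 1.89% and 0.874% of neutrophil UMIs in that order, and their part was not tested.

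The diets were then compared at the same time after injury, which asks how cells differ when microglia are depleted. Summed shares under PLX5622 were higher than under vehicle in 4 of 5 types in sham, in 3 of 10 at 7 dpi and in 6 of 10 at 28 dpi, so the types did not share 1 direction. Cluster 5 was higher under PLX5622 at all 3 times (log2 ratios 0.16, 0.25 and 0.33) and B cells at both times counted (0.25 and 0.30), while astrocytes were lower at all 3 (−0.038, −1.44 and −2.01). In MDMs, the log2 ratio of PLX5622 to vehicle was −0.16 at 7 dpi and 0.01 at 28 dpi, where TMM scaling turns it to −0.05. At 7 dpi, 2 of 84 members were higher and 3 lower, with a median of −0.16, where 7.2% of all genes were higher and 7.47% lower. At 28 dpi, 3 of 83 were higher and 1 lower, with a median of 0.03, where 8.66% of all genes were higher and 9.08% lower. In cluster 3 at 7 dpi, 2 of 81 were higher and 2 lower, with a summed log2 ratio of −0.13, where 10.7% of all genes were higher and 11.6% lower. In these 3 comparisons the shares of members past 1.5 fold were below those of all genes. Depth differed between the diets at 7 dpi. In cluster 3, 29 cells with a median of 9405 UMIs under PLX5622 stood against 602 cells with 2990 under vehicle. In MDMs the medians were 15945 and 5777 UMIs.

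Rpl34 and Rps27 passed 1.5 fold in all 3 of these comparisons. Rpl34 stood at 203 CPM against 77.0 in MDMs at 7 dpi (log2 ratio 1.40), 385 against 117 at 28 dpi (1.72) and 297 against 103 in cluster 3 at 7 dpi (1.53). Rps27 stood at 212 against 93.6 (1.18), 285 against 182 (0.64) and 297 against 120 (1.30). Rps28, a small-subunit protein, stood at 2930 against 2220 (0.40), 3260 against 1830 (0.83) and 3740 against 2680 (0.48). The lowest at 28 dpi in MDMs were Rpsa (1870 against 2940, −0.65), Rplp0 (1640 against 2360, −0.53) and Rpl7 (−0.43). Among members with at least 10 UMIs in each library, Rps15a-ps6 was lowest at 7 dpi, at −0.66 in MDMs and −0.63 in cluster 3. The comparisons at 7 dpi share their libraries.

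These 3 genes also differed by library over cell types, and they were not alone. As shares of the members' UMIs, 52 of 82 members had 1 direction of PLX5622 against vehicle in every type counted in sham, over at most 5 types. At 7 dpi 15 did, and at 28 dpi 21, over up to 10 types. A shared direction is easier to reach over fewer types, so these counts do not compare the times. The same count over all genes is not given. The median over types passed 1.5 fold in 5, 2 and 3 members, and in sham these included Rps15a-ps6 (log2 ratio −1.22) and Rpl28 (0.68). As shares of the members' UMIs in whole libraries, Rpl34 held 0.0747%, 0.0426% and 0.0672% under vehicle and 0.116%, 0.131% and 0.217% under PLX5622. Rps27 held 0.0484%, 0.052% and 0.103% under vehicle and 0.136%, 0.144% and 0.202% under PLX5622. Rps28 held 0.756%, 1.14% and 0.939% under vehicle and 0.997%, 1.54% and 1.52% under PLX5622. In Rpl34 and Rps27 every PLX5622 library was above every vehicle library, while Rps28 overlapped (sham PLX5622 lay below 7 dpi vehicle). Rps27 and Rpl34 were higher under PLX5622 in each type counted in sham (4 types), at 7 dpi (8) and at 28 dpi (8 and 7), and Rps28 in 5 of 5, 9 of 10 and 10 of 10. Diet, library and the copies that share reads with Rpl34 and Rps27 cannot be told apart here.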

How the data were processed

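Single-cell RNA-seq of 6 libraries was used, each 1 pool of mice of 1 group. The deposited values are counts of UMIs per gene and cell, which the authors made with Cell Ranger and filtered and clustered with Seurat. The submitters' processing notes also name STAR 2.4.0, HTSeq 0.6.1 and the builds GRCm38 and mm10. The paper gives these for the alignment and read counts of the bulk samples. The count table held 21016 cells and 16003 genes, no symbols of mitochondrially encoded genes, and 716 cells above the limit of 3000 genes per cell. Of 20972 distinct barcodes, 44 occurred in more than 1 library. Doublets were left as in the authors' clusters. The 14 bulk samples were not analysed here. A few genes are not reported here.

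Cells were grouped by library and cluster number, and UMIs of the members were summed and given as percent of all UMIs or scaled to 1000000 UMIs (CPM), with exact Poisson, exact conditional binomial or Clopper-Pearson 95% intervals. With 1 library per group no test was run. Types with at least 20 cells in a library and genes with a sum of 100 UMIs or more over both libraries compared were used, and past 1.5 fold is a size, not a test. Named members are the 3 highest and 3 lowest ratios per comparison with at least 10 UMIs in each library, the 5 with most and fewest UMIs, the 5 that varied most and least over clusters, and a fixed list of paralogs and well-known members, with the highest and lowest genes of each list described (translation factors, ribosome biogenesis, mTORC1, S6 kinases, mitochondrial ribosomal proteins, immediate early genes and myeloid genes). The members, lists and comparisons were chosen with earlier results of these data known. Alternatives were edgeR 4.0.16 TMM factors and DESeq2 1.42.0 size factors (scaling only), each cell weighted alike, cells thinned to 1000 UMIs, cells with 500 or more genes, cells without the top 5% of UMIs, a stricter list of 79 members, a limit of 2 fold, no minimum count, astrocytes and endothelial cells with few myeloid UMIs, cells of 2000 to 5000 UMIs, and the PLX5622 sham as reference. The ratio code was tested on simulated data. Windows at start sites come from RefSeq tables of GRCm38.p6. Python 3.11.15, scipy 1.17.1 and R 4.3.3 were used.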

Additional observations from a re-analysis of the deposited data

Results flagged for a closer look

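In 4 clusters the ratio of PLX5622 to vehicle in the summed share of ribosomal protein genes had opposite signs at the 2 times after injury, with counting intervals that did not include 0, from 1 library per condition, and the difference between times was not tested. The log2 ratio was −0.049 at 7 dpi and 0.27 at 28 dpi in microglia. In cluster 3 it was −0.13 and 0.50, and in the oligodendrocyte lineage 0.074 and −0.63. In MDMs it was −0.16 and 0.014, but at 28 dpi TMM factors turned it to −0.051, DESeq2's factors to −0.046 and cells of 2000 to 5000 UMIs to −0.075, the sign seen at 7 dpi. Endothelial cells had −0.18 and 0.016, where the interval at 28 dpi (−0.0020 to 0.034) included 0. In cluster 3 the 28 dpi PLX5622 library held 63 cells, with a summed share of 33.5%, against 17.3% to 23.7% in the other 4 libraries with at least 20 of its cells.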

How the results depend on the processing

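No paired analysis was possible because each group is 1 library. The ratios are given in the order microglia at 7 and 28 dpi, MDMs at 7 and 28 dpi, astrocytes at 28 dpi, astrocytes under PLX5622 at 28 dpi, endothelial cells at 28 dpi, MDMs under PLX5622 at 7 and 28 dpi and cluster 3 under PLX5622 at 7 dpi. Reported log2 ratios were 0.85, 0.66, 0.09, 0.10, 2.52, −2.01, 0.39, −0.16, 0.01 and −0.13. With edgeR's TMM factors they were 1.49, 1.16, 0.45, 0.42, 2.72, −2.51, 0.57, −0.23, −0.051 and −0.24, and with DESeq2's size factors 1.50, 1.16, 0.44, 0.42, 2.73, −2.46, 0.57, −0.22, −0.046 and −0.20, so that MDMs under PLX5622 at 28 dpi changed sign with both. With each cell weighted alike, all but the ninth moved beyond counting error, to 1.13, 0.86, 0.22, 0.19, 1.97, −1.46, 0.42, −0.22 and, for cluster 3, −0.28. With cells thinned to 1000 UMIs, those other than the fifth were 0.98, 0.80, 0.18, 0.15, −1.83, 0.47, −0.22, 0.063 and −0.27. In cells of 500 or more genes, microglia at 7 dpi were at 0.83, astrocytes at 2.65 and −2.16 and MDMs under PLX5622 at 28 dpi at 0.0068. Without the 5% of cells with most UMIs, those other than endothelial cells were 0.95, 0.74, 0.10, 0.11, 2.40, −1.79, −0.16, 0.027 and −0.19. With the stricter member list, microglia were at 0.87 and 0.69, MDMs at 0.10 and 0.12, astrocytes at 28 dpi at 2.58 and endothelial cells at 0.41. In astrocytes with few myeloid UMIs the ratios were 1.18 and −0.57 and in endothelial cells 0.25. The settings that follow were chosen after seeing the data. In cells of 2000 to 5000 UMIs, microglia were at 0.99 and 0.88, MDMs at 0.28 and 0.26, astrocytes at 3.07 and −2.39, endothelial cells at 0.47 and MDMs under PLX5622 at 28 dpi at −0.075, a change of sign. Against the PLX5622 sham library, microglia were at 0.74 and 0.55, astrocytes at 2.56 and endothelial cells at 0.33.

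Members past 1.5 fold in either direction numbered 64, 43, 8, 10, 77, 76, 19, 5, 4 and 4 in the same order. For the settings below, no share of all genes is given, so the counts only describe the members. With TMM and with DESeq2's factors, microglia at 28 dpi had 77, MDMs 23 and 24 and endothelial cells 39. At 2 fold, microglia had 21 and 14, MDMs 2 and 1, endothelial cells 3, MDMs under PLX5622 at 28 dpi 1, and cluster 3 had 2. With no minimum count, MDMs at 7 dpi had 14, MDMs under PLX5622 at 28 dpi 11, and cluster 3 had 13. With few myeloid UMIs, astrocytes under PLX5622 had 21 and endothelial cells 12, where fewer cells can leave fewer members above the minimum. Against the PLX5622 sham library endothelial cells had 10. Of 66 medians of the share per cell, 57 stayed within the spread between libraries when thinned, 57 with 500 or more genes and 63 with the stricter list. Leaving mitochondrial genes out of totals was not run, since the table holds none, and the 2000 to 5000 UMI setting was not run for types under PLX5622 at 7 dpi, with 14 MDMs and 1 cell of cluster 3. Genes with few UMIs, such as Rpl3l, Rpl26 and Rpl30, give no usable ratio between libraries in single clusters.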
